A study of Mus musculus with 4 samples.

Results

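The 10 genes described here, Egr1, Egr2, Egr3, Nr4a1, Nr4a2, Nr4a3, Btg2, Zfp36, Ier2 and Ier3, are immediate early genes outside the AP-1 family, and were picked by gene symbol from the 17575 genes listed in the series. All 10 were measured in plated rib chondrocytes, the cells that make cartilage matrix, by RNA-seq. The KO libraries came from mice with the transgene Col2Cre(Tg) and with fl/fl alleles of both Kdm6a and Kdm6b, which encode histone H3 lysine demethylases. The Cre recombinase is driven by Col2 and so acts in cartilage cells. The WT libraries came from wild type mice, for which no Cre or loxP allele is named. Both groups were C57/Bl6 mice of 10 days, and all cells passed overnight through collagenase in medium with serum and were then plated, so neither group shows uncultured cartilage. There were 2 KO and 2 WT libraries where the series description speaks of triplicates. The labels do not tell whether replicate libraries stand for different animals, and p-values then cover the spread between these 4 samples only, which could be technical.

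Immediate early genes are transcribed within minutes of a stimulus such as serum, a growth factor or mechanical stress, without new protein synthesis. Signals through MAP kinases reach the serum response factor SRF and its ETS partners at CArG boxes, and signals through cyclic AMP and calcium reach CREB at cyclic AMP response elements (CRE). The products include transcription factors (the Egr zinc finger proteins and the Nr4a orphan nuclear receptors). They also include proteins that end the response, among them Zfp36 (tristetraprolin) and Btg2, which promote mRNA deadenylation and decay. Chondrocytes express such genes when loaded, stimulated or released from their matrix.

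Depth was 32332044 and 32230980 estimated counts in the KO libraries and 31616619 and 31178248 in the WT libraries. The targeted Kdm6b measured 51.4 and 46.2 CPM in KO against 131.4 and 118.3 CPM in WT, and Kdm6a 28.6 and 31.4 CPM in KO against 52.6 and 56.9 CPM in WT. CPM is counts scaled to a common library size, with TMM scaling for library composition. Both genes were lower in KO (edgeR adjusted p = 0.00174 and 0.00489), although counts cover the whole gene and not the deleted part. The chondrocyte label held: 8 markers including Col2a1, Acan and Sox9 summed to 58642 and 56274 CPM in KO and to 41675 and 40335 CPM in WT. Col2a1 made most of each sum, at 37110.6 and 36603.1 CPM in KO and 26008.2 and 24369.9 CPM in WT. These markers also differed between groups: edgeR called 4 of the 8 higher in KO and 0 lower, where 3.62% of all tested genes were higher. Sox9 went the other way, at a log2 fold change of -0.19, and did not pass. The KO libraries differed from each other in some inflammatory and muscle genes: Il6 measured 5.80 CPM in KO replicate 1 and 30.7 CPM in KO replicate 2, and Myod1 2.75 and 10.7 CPM.

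Btg2, Zfp36 and Ier3 fell in KO chondrocytes, by 1.75-fold, 1.53-fold and 1.47-fold, and none of the 10 genes rose. All 10 passed the filter on low counts, and 3 of them passed edgeR's quasi-likelihood test as lower in KO at a Benjamini-Hochberg adjusted p under 0.05, where 5.63% of all 13773 tested genes did. The background for calls of higher genes was 3.62%. The 10 genes, like the other lists below, were chosen with earlier results of these data known. Setting them beside the shares of all tested genes is therefore not an independent test. The fitted difference was negative for all 10, from -0.23 to -0.89 on the log2 scale, with a median of -0.58 against 0.004 for all tested genes. In 9 of the 10, Nr4a3 being the exception, both KO libraries lay below both WT libraries in CPM, which held for 30.7% of tested genes, and the reverse held for none of the 10 and for 30.9% of tested genes. At an unadjusted edgeR p under 0.05, 8 of 10 were lower, against a background of 15.3%. The count of 3 changed whichever library was left out. Each such fit leaves 1 library in a group, so it cannot tell dependence on the missing library from lost replication. The median log2 fold change of the 10 then ran from -0.85 to -0.35 in edgeR. With DESeq2 in place of edgeR the count was 6, adding Egr1, Egr3 and Nr4a2, against a background of 7.32%. Leaving out any 1 library lowered the DESeq2 count, and the median log2 fold change of the 10 then ran from -0.86 to -0.36. The authors' deposited table listed 4 of the 10 as lower in CKO, which are Btg2, Ier3, Zfp36 and Nr4a2, with 5.19% of its 17529 genes lower. That share is over every gene it lists, whereas 5.63% and 7.32% are over the 13773 genes that passed the filter.

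**Figure D1:**
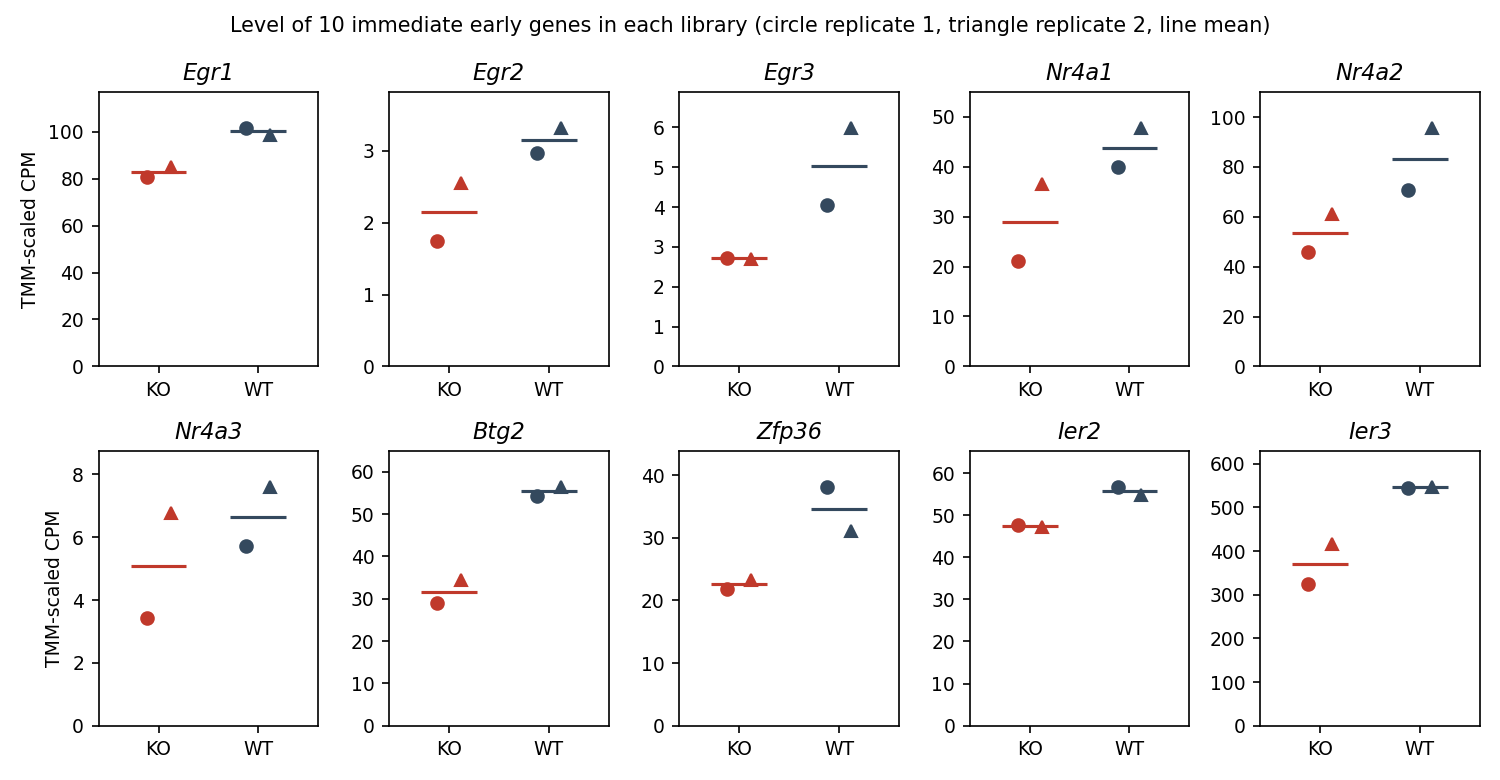
Level of each of the 10 genes in TMM-scaled CPM (y axis, from 0), with 2 KO libraries on the left and 2 WT libraries on the right of each panel; circles are replicate 1, triangles replicate 2 and lines the mean of a group. For all genes but Nr4a3 both KO libraries lie below both WT libraries, and for Nr4a1 and Nr4a3 the KO libraries lie far apart, at 21.2 and 36.5 CPM and at 3.42 and 6.78 CPM.

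The sequences before the start of the 3 genes that fell and of Nr4a2 are shown because the elements through which immediate early genes are known to be induced often lie there. They are the 250 bases before the RefSeq gene start in GRCm38.p6, 5′ to 3′ on the gene's strand, while the deposited files use mm9. Btg2 lies at chr1:134079156-134079405 on the minus strand, Zfp36 at chr7:28379229-28379478 (minus), Ier3 at chr17:35821463-35821712 (plus) and Nr4a2 at chr2:57124004-57124253 (minus). Capitals mark every match on either strand to a CArG box, a CRE (TGACGTCA), a short CRE (TGACG, also contained in a full CRE), an AP-1 site (TGANTCA), an ETS site (CCGGAA), an EGR site (GCGGGGGCG), an NBRE (AAAGGTCA, the site of Nr4a receptors) or a kappaB site.
Btg2: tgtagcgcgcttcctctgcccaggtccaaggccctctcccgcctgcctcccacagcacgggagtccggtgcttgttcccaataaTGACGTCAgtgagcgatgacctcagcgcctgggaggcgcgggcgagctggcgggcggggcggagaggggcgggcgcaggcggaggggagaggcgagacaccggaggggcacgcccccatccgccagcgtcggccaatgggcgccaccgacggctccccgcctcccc
Zfp36: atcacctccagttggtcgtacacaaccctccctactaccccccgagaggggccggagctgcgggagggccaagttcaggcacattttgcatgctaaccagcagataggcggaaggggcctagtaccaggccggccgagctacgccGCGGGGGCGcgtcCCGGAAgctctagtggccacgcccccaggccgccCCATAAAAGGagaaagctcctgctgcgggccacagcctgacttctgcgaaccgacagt
Ier3: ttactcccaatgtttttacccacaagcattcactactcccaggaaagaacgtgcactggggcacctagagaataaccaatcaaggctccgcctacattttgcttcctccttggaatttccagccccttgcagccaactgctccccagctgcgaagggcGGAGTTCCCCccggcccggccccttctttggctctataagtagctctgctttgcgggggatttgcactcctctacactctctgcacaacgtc
Nr4a2: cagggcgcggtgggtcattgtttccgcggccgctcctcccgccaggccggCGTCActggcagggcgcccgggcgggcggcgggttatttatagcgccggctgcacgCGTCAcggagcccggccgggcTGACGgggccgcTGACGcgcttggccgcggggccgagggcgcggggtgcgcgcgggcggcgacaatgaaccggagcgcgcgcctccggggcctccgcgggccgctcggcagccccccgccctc
The capitals in Btg2 are a full CRE, 166 to 159 bases before the start, which contains a short CRE on each strand. In Zfp36 they are, in order, an EGR site, an ETS site and a CArG box, the last at 58 to 49 bases. In Ier3 they are 1 kappaB site on the other strand, at 92 to 83 bases, and in Nr4a2 they are 4 short CREs.

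A promoter window was used for 7 of the 10 genes. None was used for Egr1, Egr3 and Ier2, so these were not searched. A short CRE was found in 5 of them (Btg2, Egr2, Nr4a1, Nr4a2 and Nr4a3), where 17.8% of 32851 promoter windows of that length hold one. A full CRE was found in Btg2 alone of the 7, against 1.55% of windows, and a CArG box in Zfp36 and Egr2, against 1.47%. Egr2 has 5 listed windows, more chances for a match than the single window of the others. EGR sites stood in Nr4a1 and Zfp36 (2.57% of windows), ETS sites in Egr2, Nr4a1 and Zfp36 (12%) and the kappaB site in Ier3 (3.9%). GC boxes (GGGCGG), which overlap some EGR and CArG matches, were in all 7, against 32.7%, and TATAAA was in Nr4a2 alone of the 7, on the other strand, against 12.4%. No AP-1 site (6.75% of windows) or NBRE (1.34%) was found in these windows. A match says that the letters are there and not that a factor binds.

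Apart from Nr4a3, the 10 genes are shorter than the median gene, a feature that their choice by name did not use. In GENCODE M21 they span 1240 bases (Ier3) to 41295 bases (Nr4a3), with a median of 5287, against a median of 24470 for 13588 tested protein-coding genes. Their median number of exons is 2, against 9. In the longest coding transcript Ier2 has 1 exon, Egr1, Egr2, Egr3, Btg2, Zfp36 and Ier3 have 2, and the 3 Nr4a genes have 8 each. Transcript lengths in the deposited files, averaged over the 4 libraries, ran from 1090 to 3864 bases, and their median of 2753 was close to the median of 2882 over tested genes. They lie on 10 different chromosomes, from 1 (Btg2) to 18 (Egr1). Zfp36 is overlapped on the opposite strand by Gm44710, and no source used here tells whether counting was stranded, so reads of both cannot be told apart.

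Per length, Ier3 stood far above the others. In FPKM (the authors' values, scaled to transcript length and library size) it measured 308.67 and 392.84 in KO and 510.18 and 498.36 in WT, and it ranked 200 and 161 among all listed genes in KO against 122 and 123 in WT. Ier2 followed with 31.4 ± 0.22 FPKM in KO and 36.1 ± 1.5 FPKM in WT (mean ± SD, n = 2 each), then Egr1 with 27.2 ± 1.0 and 32.1 ± 1.3 FPKM in KO and WT. Nr4a2 came next in both groups, at 17.5 ± 3.5 FPKM in KO and 26.6 ± 5.2 FPKM in WT. Below it Zfp36, Nr4a1 and Btg2 lay between 8.46 and 14.56 FPKM in KO and between 15.73 and 21.70 FPKM in WT. The order of these 3 is not settled, since Nr4a1 overlapped both others in each group. Nr4a3 measured 1.85 and 3.66 FPKM in KO and 3.05 and 3.95 FPKM in WT. Egr2 and Egr3 were lowest and overlapped each other in each group, at 0.59 to 0.86 FPKM in KO and 1.0 to 1.5 FPKM in WT.

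Among the regulators of mRNA decay, Btg2 (gene 12227), an antiproliferative protein that recruits the CCR4-NOT deadenylase, measured 29.0 and 34.4 CPM in KO against 54.4 and 56.4 CPM in WT. The highest KO library was far below the lowest WT library. Its log2 fold change, KO minus WT, was -0.81 (SE 0.10, 95% confidence interval -1.05 to -0.57, edgeR adjusted p = 0.00935). In edgeR the log2 fold change of Btg2 was -0.69 without KO replicate 1 and -0.93 without KO replicate 2. It was -0.83 without WT replicate 1 and -0.78 without WT replicate 2. Zfp36 (gene 22695), which binds AU-rich elements of short-lived mRNAs, measured 21.9 and 23.3 CPM in KO against 38.1 and 31.1 CPM in WT. The groups did not overlap, and the WT libraries differed more from each other than the KO libraries did. The log2 fold change of Zfp36 was -0.61 (SE 0.12, edgeR adjusted p = 0.0275). It was -0.57 without KO replicate 1, -0.65 without KO replicate 2, -0.46 without WT replicate 1 and -0.75 without WT replicate 2.

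Ier3 (gene 15937), a stress-induced protein linked to cell survival, measured 325.7 and 415.5 CPM in KO against 545.5 and 546.7 CPM in WT. The WT libraries were nearly equal and the KO libraries were apart, both below WT. Its log2 fold change was -0.56 (SE 0.12, edgeR adjusted p = 0.0383). Leaving out KO replicate 1, the lower of the KO libraries, gave -0.39 in edgeR. Leaving out KO replicate 2 gave -0.74, WT replicate 1 gave -0.56 and WT replicate 2 gave -0.55. Ier2 (gene 15936), a nuclear protein induced by growth factors, measured 47.6 and 47.3 CPM in KO against 56.7 and 54.8 CPM in WT. Its groups did not overlap, the difference was small, and it did not pass (log2 fold change -0.23, SE 0.07, 95% confidence interval -0.40 to -0.07, edgeR adjusted p = 0.0871).

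None of the Egr genes passed in edgeR. Egr1 (gene 13653), the most abundant of them, measured 80.6 and 85.2 CPM in KO against 101.7 and 98.8 CPM in WT. Replicates lay close together and the groups did not overlap, with a log2 fold change of -0.27 (SE 0.07, 95% confidence interval -0.45 to -0.10, edgeR adjusted p = 0.0631). Egr3 (gene 13655), a relative of Egr1 with the same type of zinc fingers, had 89 and 88 counts in KO against 128 and 182 in WT, or 2.72 and 2.70 CPM against 4.05 and 5.99 CPM. It had the most negative fitted difference of the 10 genes, at -0.89, with a wide error (SE 0.24, 95% confidence interval -1.45 to -0.32, edgeR adjusted p = 0.0661). Egr2 (gene 13654), best known for its role in Schwann cells, had 57 and 83 counts in KO against 94 and 101 in WT, and 1.74 and 2.55 CPM against 2.97 and 3.32 CPM. The interval of its log2 fold change included no difference (-0.55, SE 0.25, 95% confidence interval -1.17 to 0.06, edgeR adjusted p = 0.205).

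The Nr4a genes encode nuclear receptors that act without a known ligand, and none of them passed in edgeR. Nr4a2 (gene 18227) measured 45.8 and 61.3 CPM in KO against 70.9 and 95.7 CPM in WT. The groups did not overlap, and replicates differed by 1.34-fold in KO and 1.35-fold in WT. Its log2 fold change was -0.64 (SE 0.18, 95% confidence interval -1.07 to -0.20, edgeR adjusted p = 0.0764), and it was called lower by DESeq2 (adjusted p = 0.0079) and in the authors' deposited table (adjusted p = 0.01). Nr4a1 (gene 15370) measured 21.2 and 36.5 CPM in KO against 39.9 and 47.8 CPM in WT. KO replicate 2 was nearer to the WT libraries than to KO replicate 1, and the log2 fold change was -0.60 (SE 0.24, 95% confidence interval -1.18 to -0.03, edgeR adjusted p = 0.155). Nr4a3 (gene 18124) measured 3.42 and 6.78 CPM in KO against 5.72 and 7.60 CPM in WT. KO replicate 2 lay between the WT libraries, and the log2 fold change was -0.39 (SE 0.32, 95% confidence interval -1.16 to 0.39, edgeR adjusted p = 0.463). Without KO replicate 2 the edgeR log2 fold changes were -1.04 for Nr4a1, -0.85 for Nr4a2 and -0.95 for Nr4a3. Without KO replicate 1 they were -0.26, -0.44 and 0.03 in the same order.

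**Figure D2:**
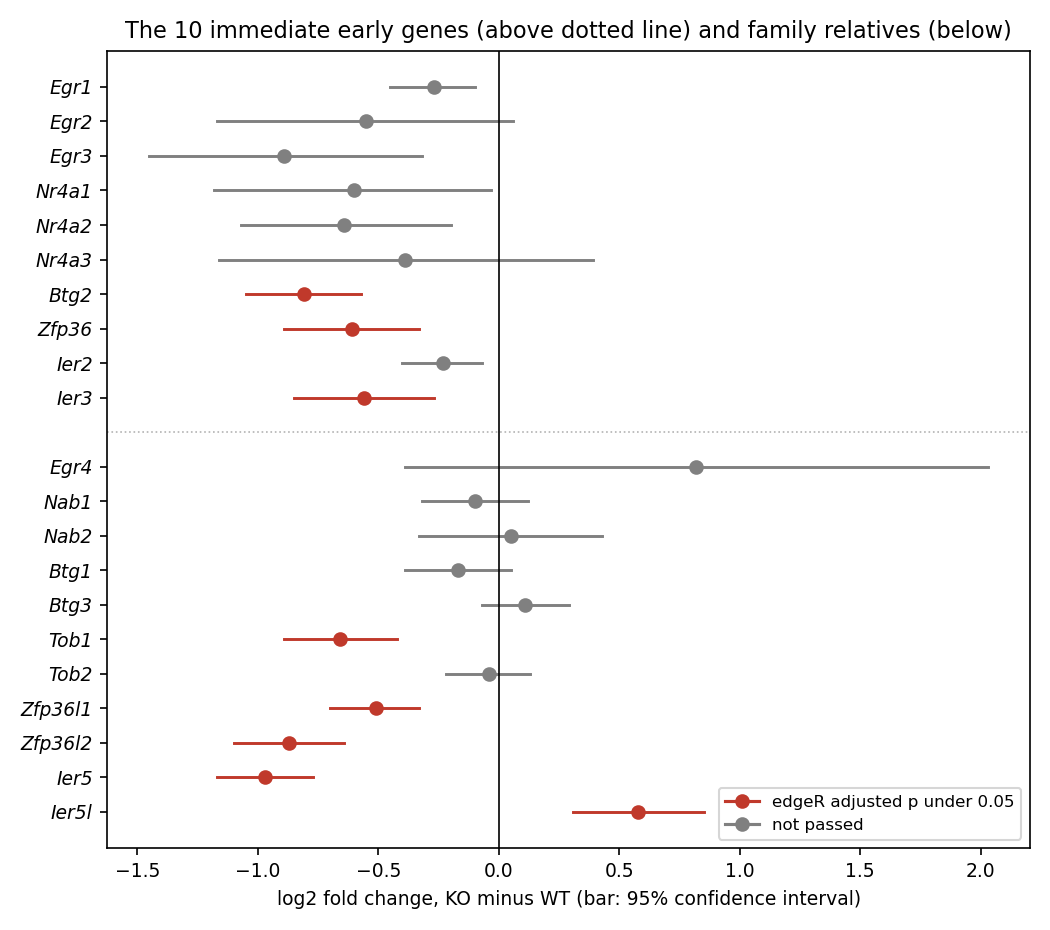
Log2 fold change, KO minus WT (x axis), of the 10 genes above the dotted line and of 11 genes of the same or partner families below it; points are edgeR estimates and bars their 95% confidence intervals over 2 KO and 2 WT libraries, in red where the adjusted p was under 0.05. All 10 estimates above the line are below 0, while the relatives run from -0.97 for Ier5 to 0.82 for Egr4.

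The 2 KO libraries held unequal levels of these genes. Over the 10, the median log2 ratio to the WT mean was -0.86 in KO replicate 1 and -0.34 in KO replicate 2, against -0.06 and 0.06 in the WT replicates. KO replicate 2 was above KO replicate 1 in 8 of 10, against 47.5% of the 12161 tested genes averaging at least 1 CPM, with Egr3 and Ier2 nearly equal between both libraries. The ratio of KO replicate 2 to KO replicate 1 was 1.98 for Nr4a3, 1.72 for Nr4a1, 1.46 for Egr2, 1.34 for Nr4a2 and 1.28 for Ier3. The median absolute log2 difference between replicates was 0.30 in KO and 0.21 in WT for the 10 genes, against 0.10 in KO and 0.13 in WT for those 12161 genes. Without KO replicate 1 the median log2 fold change of the 10 was -0.35 and without KO replicate 2 it was -0.85, where without WT replicate 1 or 2 it was -0.60 or -0.47.

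Families of the 10 genes were split. Of 11 tested relatives 4 fell, 1 rose and 6 did not pass, with a median log2 fold change of -0.10. Over all tested genes 5.63% fell and 3.62% rose. The transcripts of 2 relatives of Zfp36 that also bind AU-rich elements fell: Zfp36l2 measured 213.5 and 181.9 CPM in KO against 371.0 and 353.1 CPM in WT, and Zfp36l1 189.6 and 206.2 CPM against 287.3 and 278.2 CPM. In each the groups were clearly apart, with log2 fold changes of -0.87 (SE 0.10, edgeR adjusted p = 0.00676) and -0.51 (SE 0.08, edgeR adjusted p = 0.0141). Tob1, an antiproliferative relative of Btg2, fell too, with 42.9 and 46.7 CPM in KO against 65.5 and 76.1 CPM in WT (log2 fold change -0.66, SE 0.10, edgeR adjusted p = 0.014). The other antiproliferative genes Btg1, Btg3 and Tob2 did not pass, at log2 fold changes of -0.17, 0.11 and -0.04. Ier5 and Ier5l, which share an Ier name and are related to Ier2, moved in opposite directions. Ier5 measured 137.6 and 121.3 CPM in KO against 252.6 and 254.3 CPM in WT (log2 fold change -0.97, SE 0.08, edgeR adjusted p = 0.0032), whereas Ier5l measured 29.4 and 30.7 CPM in KO against 22.0 and 18.2 CPM in WT (0.58, SE 0.11, edgeR adjusted p = 0.0296). Nab1 and Nab2, corepressors of Egr proteins, had log2 fold changes of -0.10 and 0.05 and did not pass. Egr4 was barely detected, with 0.732 and 0.644 CPM in KO and 0.221 and 0.560 CPM in WT.

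The counts in this paragraph stand beside 5.63% of all tested genes that fell and 3.62% that rose. Of 7 tested AP-1 genes 3 fell, none rose and 4 did not pass, with a median log2 fold change of -0.49. Jun, the main partner in AP-1 dimers, measured 122.7 and 119.0 CPM in KO against 235.1 and 218.0 CPM in WT. Fosl1 had a log2 fold change of -0.85 (SE 0.13) and Fosb of -0.55 (SE 0.10), with edgeR adjusted p-values of 0.014 and 0.0251, while Fos, at 15.2 and 16.5 CPM in KO against 19.4 and 25.1 CPM in WT, did not pass (adjusted p = 0.0815). Of 32 other response genes 14 fell, 1 rose and 17 did not pass, with a median log2 fold change of -0.41. Dusp5, a phosphatase of ERK, was at 11.9 and 10.5 CPM in KO against 39.6 and 35.7 CPM in WT (log2 fold change -1.75, SE 0.11, edgeR adjusted p = 0.00152). Csrnp1, Dusp4 and the kinase gene Sgk1 had log2 fold changes of -0.91, -1.07 and -0.64 (edgeR adjusted p of 0.00319, 0.00846 and 0.0113), and the gene that rose was Cebpd (0.89, SE 0.17, edgeR adjusted p = 0.0285).

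Of 17 genes that carry the inducing signals 2 fell, none rose and 15 did not pass, with a median log2 fold change of -0.13. Among all tested genes 5.63% fell, so a count of 2 says little about these 17. Srf itself measured 104 and 107 CPM in KO against 136 and 130 CPM in WT (log2 fold change -0.33, SE 0.07, edgeR adjusted p = 0.0399), and its ETS partner Elk4 26.3 and 25.2 CPM in KO against 38.0 and 33.9 CPM in WT (-0.48, SE 0.09, edgeR adjusted p = 0.0278). Both were small differences between groups that did not overlap. The SRF coactivator gene Mkl1 and the gene of CREB itself, Creb1, did not pass, at log2 fold changes of -0.30 and 0.19.

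**Figure D3:**
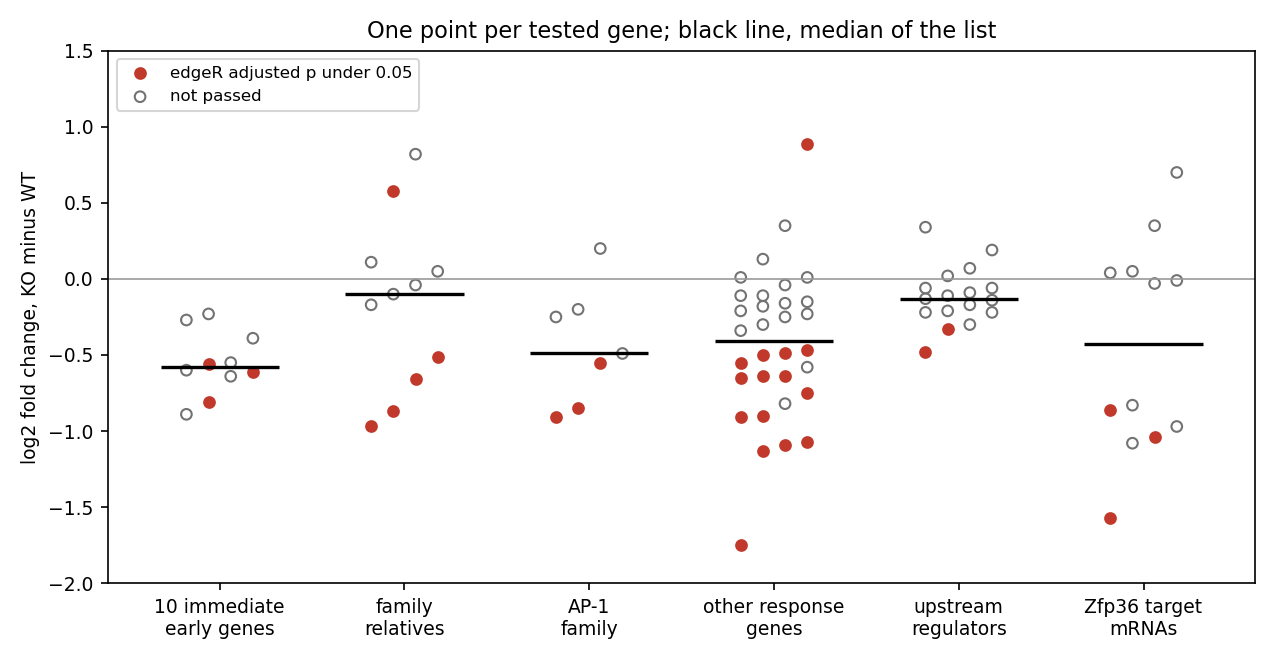
Log2 fold change, KO minus WT (y axis), of each tested gene in the 10 immediate early genes and in 5 other lists (x axis); red points passed edgeR at an adjusted p under 0.05, open points did not, and black lines are list medians. The medians run from -0.10 for family relatives to -0.58 for the 10 genes, with Dusp5 lowest at -1.75.

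Messages that tristetraprolin is known to bind moved unevenly. Of 12 such mRNAs tested 3 fell, none rose and 9 did not pass, with a median log2 fold change of -0.43. The share of all tested genes that fell was 5.63%. Ptgs2, the inducible cyclooxygenase gene, measured 984.0 and 1221.0 CPM in KO against 3031.0 and 3501.0 CPM in WT (log2 fold change -1.57, SE 0.13, edgeR adjusted p = 0.00263). Plaur and Vegfa fell with log2 fold changes of -1.04 and -0.86 (edgeR adjusted p of 0.0052 and 0.00935), and Lif, at -0.83 (SE 0.21), did not pass (edgeR adjusted p = 0.0557). In 11 of the 12 KO replicate 2 was above KO replicate 1, with a median absolute log2 difference of 0.82 between them. WT replicate 2 was above WT replicate 1 in 9 of the 12, with a median difference of 0.36. Over all tested genes these medians were 0.12 in KO and 0.14 in WT. Replicate 2 was the higher in 6690 of 13773 tested genes in KO and in 6583 in WT. Cxcl1 measured 248.6 and 804.4 CPM in KO against 493.1 and 523.7 CPM in WT, so that the KO libraries lay on both sides of WT.

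**Figure D4:**
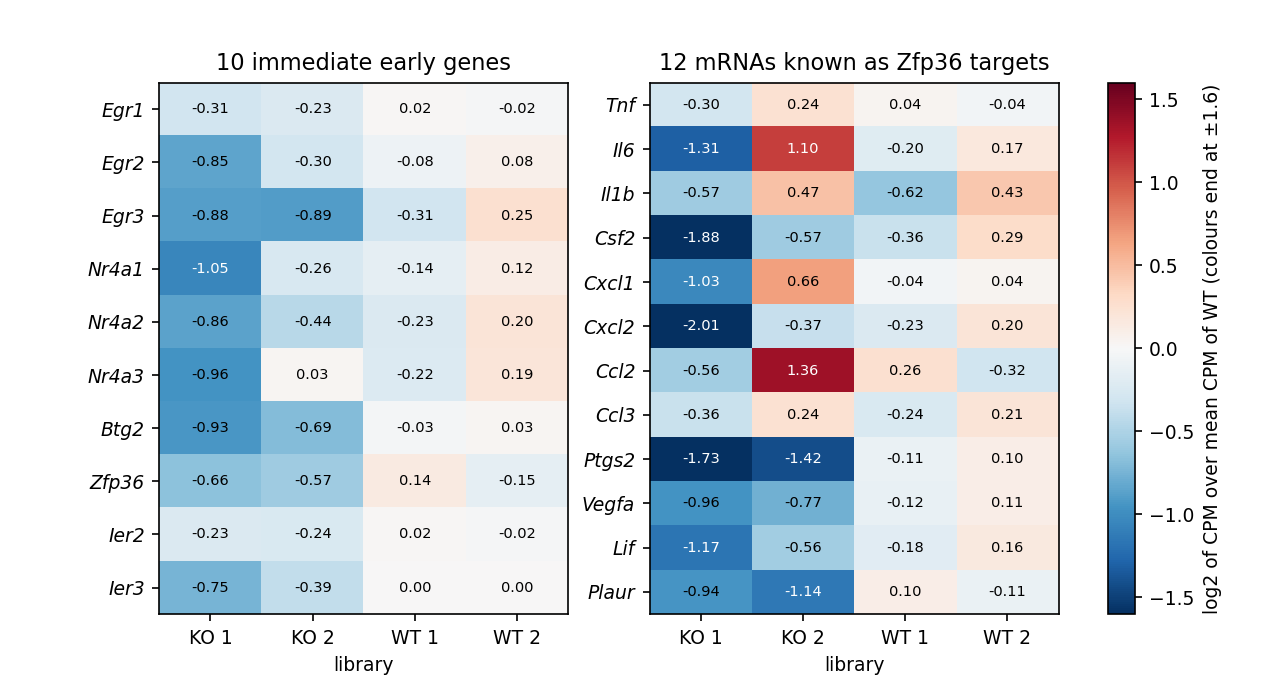
Log2 of the CPM in each library over the mean CPM of the 2 WT libraries, for the 10 immediate early genes (left) and 12 mRNAs known as targets of Zfp36 (right); columns are KO replicates 1 and 2 and WT replicates 1 and 2, blue is below and red above the WT mean. Nr4a1, Nr4a2 and Nr4a3 are at -1.05, -0.86 and -0.96 in KO replicate 1 and at -0.26, -0.44 and 0.03 in KO replicate 2, and Il6 is at -1.31 and 1.10.

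Markers of other cells also differed between the libraries, and many cells besides chondrocytes express immediate early genes. In bulk RNA fewer cells of a type and less RNA per cell cannot be told apart. The 10 macrophage markers summed to 84.1 and 100.3 CPM in KO and to 157.1 and 161.0 CPM in WT, of which Cd14 made the larger part. Without Cd14 they summed to 22.7 and 24.0 CPM in KO and 32 and 29.3 CPM in WT, with C1qa, C1qb and C1qc at or near 0 in every library. For the marker counts that follow, 5.63% of all tested genes fell and 3.62% rose. Of 7 tested macrophage markers 1, Cd14, fell and 0 rose. Endothelial markers summed to 90.5 and 77.9 CPM in KO and to 124.1 and 114.2 CPM in WT, and 3 of 8 fell. Erythroid markers summed to 10.7 and 12.2 CPM in KO and to 22.7 and 27.9 CPM in WT, and 3 of 5 fell. Neutrophil markers summed to 62.7 and 27.3 CPM in KO and 60.0 and 109.6 CPM in WT, osteoblast markers to 66.4 and 105.7 CPM and 103.4 and 146.3 CPM, fibroblast markers to 519.9 and 692.8 CPM and 900.0 and 1278.9 CPM, and skeletal muscle markers to 6.99 and 25.8 CPM and 9.52 and 8.72 CPM. Of the markers tested in these lists, 2 of 6 fibroblast markers and 1 of 6 osteoblast markers fell, and 1 of 5 skeletal muscle markers, Tnnt3, named after its values were seen, rose. Col1a1 made nearly all of the osteoblast sums, at 63.0 and 101.5 CPM in KO and 96.2 and 138.4 CPM in WT. The adjusted p from edgeR was 0.186 or more for each of the 6 tested neutrophil markers. The part of these cells in the differences of the 10 genes was not tested.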

How the data were processed

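Groups and replicate numbers of the 4 RNA-seq libraries come from their titles. Bowtie2 2.2.5 and build mm9 are named in the submitters' processing notes, and the counting tool, annotation and strand setting are not given. Per the file headers, the authors' values are expected counts (74.2% to 74.6% whole within 0.005) and FPKM for each gene, and, in a DESeq2 table, each group's normalized signal with log2 fold changes, p-values and adjusted p-values. Unlisted genes were set to 0.

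Rounded expected counts were fitted with edgeR 4.0.16 under R 4.3.3, using TMM, filterByExpr and quasi-likelihood F tests of KO against WT, with Benjamini-Hochberg adjustment over 13773 genes. SE is the log2 fold change divided by the root of F. Alternatives used DESeq2 1.42.0, limma 3.58.1 on FPKM, other scalings, no filter, a replicate block and left-out libraries. The edgeR step was tested on simulated data. No replicate pair agreed within sampling noise (mean chi-square 21.9 for KO and 20.1 for WT), so each library counts once.

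The 10 genes, all other lists and the motifs were chosen with earlier results of these data known. Named were the 10 genes, Kdm6a, Kdm6b, every tested relative and the 4 genes with the smallest p in each other list. Il6, Myod1, Cebpd, Cxcl1 and the cell markers named are list members outside that rule, picked after their values were seen. Promoters are RefSeq's (GRCm38.p6), matched by gene number.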

Additional observations from a re-analysis of the deposited data

How the results depend on the processing

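The fall of Btg2 passed under 13 of 16 alternatives, and those of Zfp36 and Ier3 under 8 each. All 10 genes stayed negative in every alternative but those without KO replicate 1, where Nr4a3 was at 0.03 in edgeR and 0.02 in DESeq2. Of all tested genes 5.63% were called lower in the main fit, 7.32% with DESeq2, 2.59% with no filter and 9.93% with the replicate block. The 3 limma settings, in the order given next, called 4.15%, 4.08% and 0% lower. The count of the 10 called lower, 3, was 6 with DESeq2, 1 with no filter on low counts, 7 with the replicate block, and 1, 1 and 0 with limma on log2(FPKM + 1), log2(FPKM + 0.1) and unfiltered log2(FPKM + 1). With a library left out it ran from 0 to 6 in edgeR and from 2 to 5 in DESeq2, an alternative chosen after seeing the data. The count of all changed genes, 1274, was 720 with no filter, 2316 with the replicate block and 0 with unfiltered limma, where 4107 genes had an unadjusted p under 0.05, and ran from 0 to 1275 in edgeR with a library left out, and was 684, 814, 567 and 422 in DESeq2 without KO replicate 1, KO replicate 2, WT replicate 1 and WT replicate 2. Each fit with a library left out leaves 1 library in a group. Nothing about the 10 genes is therefore concluded from its count of calls. With a library left out, the median log2 fold change of the 10 ran from -0.85 to -0.35 in edgeR. Over all tested genes that median ran from 0.002 to 0.01. In DESeq2 these medians ran from -0.86 to -0.36 and from -0.005 to 0.003. The share of falling genes among calls was 60.9% in edgeR and 47.8% in limma on log2(FPKM + 1), where the median of all genes was 0.045. Kdm6a and Kdm6b lost their call in unfiltered limma (log2 fold changes -0.73 and -1.21) and, in edgeR, without WT replicate 1 or 2, with edgeR ranges over left-out libraries of -0.93 to -0.80 and -1.43 to -1.27. In DESeq2 both kept their call with any library left out, at -0.94 to -0.81 and -1.44 to -1.28. Same-numbered libraries share a number only: deviations of KO replicate 1 and WT replicate 1 from their group means correlated at 0.11 over genes. With 2 libraries per group the replicate 2 libraries repeat this value. The replicate block added Egr1, Egr3, Nr4a1 and Nr4a2 to the calls. The cause of these changes was not tested. Egr2 and Egr3 had the fewest counts of the 10 genes, 57 to 182 a library.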
